A study of Mus musculus with 6 samples.

Results

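The genes described here are 48 genes of the mitotic spindle, the kinetochore and cytokinesis, taken by gene name from a fixed list of 48 names. All 48 names were found among the 55401 genes of the deposited expression table. RNA was sequenced from bone marrow-derived macrophages (BMDM), the macrophages obtained by growing bone marrow cells in M-CSF (macrophage colony-stimulating factor). The Lamtor5 knockdown group held 3 libraries and the WT group held 3 libraries. Both groups are labelled as mouse bone marrow, cell type BMDM, M-CSF induced, and they differ in the labels by genotype alone. The labels give no age, strain or sex. The series' design text writes the mutant mouse as HBXIPΔLysM; HBXIP is another name of Lamtor5, a subunit of the Ragulator complex that anchors mTORC1 signalling at the lysosome. LysM is the lysozyme locus Lyz2, whose promoter is widely used to express Cre in macrophages, monocytes and granulocytes. The labels do not describe the alleles, and separate animals or cultures are not named for the 3 libraries of either group. A p-value here thus reflects library-to-library spread alone, and that spread may be technical.

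In mitosis, microtubules form a bipolar spindle and attach to each chromosome at its kinetochore, a protein assembly built on the centromere. The spindle checkpoint holds back the anaphase-promoting complex (APC/C) until every kinetochore is attached, after which separase cuts the sister chromatids apart and the cell divides by cytokinesis. Genes of this programme are transcribed mainly in late S phase, G2 and M phase, and their RNA is low in cells that do not divide. M-CSF drives both the division and the maturation of macrophage precursors in bone marrow cultures. In bulk RNA, fewer dividing cells and less RNA per dividing cell cannot be told apart.

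Many promoters of such genes hold a cell cycle genes homology region (CHR) close to the transcription start, often with CCAAT boxes upstream of it. RefSeq promoter windows (GRCm38.p6, 250 bases before to 50 bases after the start) were found for 40 of the 48 genes, in 43 windows. The 120 bases before the start are shown for 4 genes from 3 of the roles described below: Mki67, the gene with the highest WT level; Top2a, which acts on mitotic chromosomes; Cdc20, which starts anaphase; and Kif11, a spindle motor. Each is written 5′ to 3′ on the gene's strand, and capitals mark matches to the CHR (TTTGAA, on the other strand TTCAAA), the CHR variant TTCGAA and the CCAAT box (CCAAT, on the other strand ATTGG).
Mki67 promoter, chr7:135716380-135716499, minus strand: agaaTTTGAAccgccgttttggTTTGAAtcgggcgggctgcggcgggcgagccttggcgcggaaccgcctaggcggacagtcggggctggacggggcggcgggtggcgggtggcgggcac
Top2a promoter, chr11:99024190-99024309, minus strand: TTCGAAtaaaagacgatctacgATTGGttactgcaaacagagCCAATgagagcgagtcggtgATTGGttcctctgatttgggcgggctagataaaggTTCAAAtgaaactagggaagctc
Cdc20 promoter, chr4:118437344-118437463, minus strand: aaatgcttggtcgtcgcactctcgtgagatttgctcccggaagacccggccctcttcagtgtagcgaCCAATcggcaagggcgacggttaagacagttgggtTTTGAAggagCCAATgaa
Kif11 promoter, chr19:37376262-37376381, plus strand: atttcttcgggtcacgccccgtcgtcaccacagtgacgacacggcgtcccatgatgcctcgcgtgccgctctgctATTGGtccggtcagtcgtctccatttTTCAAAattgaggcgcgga

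The genes shown were picked for a CHR match in the printed stretch, few exon bases there and a high WT level. With positions counted backwards from the start, the CHR match began at -23 in Top2a, at -18 in Cdc20 and at -19 in Kif11. Mki67 held 2 CHR matches in this stretch, at -116 and -98, and no CCAAT box. Over the full 300-base windows, searched on both strands, 34 of the 43 windows (79.1%) held a CHR match, against 12.9% of the 14976 windows of tested genes and 17.9% of all 32851 windows. Within 50 bases of the start, a CHR match was present in 72.1% of the windows of the 48 genes and in 3.17% of the windows of tested genes. A CCAAT box was present in 72.1% of these windows, against 37.8% for tested genes, and both motifs in 65.1% against 5.3%. The variant TTCGAA was rarer, at 6.98% against 2%. By gene, 31 of the 40 matched genes held a CHR match. The 9 without one were Birc5, Bub1, Cenpe, Cenph, Mad2l1, Melk, Nuf2, Nusap1 and Pttg1. Most of the 31 genes with a CHR match, such as Aurka and Plk1, held none wholly before the start, unlike the genes shown. A match is a description of the letters and not a measured binding site.

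Several checks of the libraries come before the comparison. Each library had 26.0 to 27.99 M read pairs, and its estimated counts summed to 75.8 to 83.2 M. Of the 48 genes, 10 share exon bases with another annotated gene, from 1.35% of the bases of Top2a to 29.3% of those of Kif20a. Whether counting used strand is unknown, so reads of the other gene may be part of the values of these 10 genes. The shares of exon bases do not bound this uncertainty, which also depends on the level of the other gene. Lamtor5, the targeted gene, was at 25.5, 27.1 and 24.8 FPKM (fragments per kilobase of transcript, scaled to library size) in knockdown replicates 1 to 3 and at 55.9, 54.5 and 56.2 FPKM in WT replicates 1 to 3. The knockdown mean was 46.5% of the WT mean, and an exact two-sided permutation test gave p = 0.1, the smallest value that 3 against 3 libraries allow. Knockdown replicate 3 stood apart in Lyz2, with 73.6 FPKM against 11356 and 10650 FPKM in knockdown replicates 1 and 2. Macrophage markers were present in all 6 libraries, and 8 of 10, Lyz2 among them, had a log2 fold change below 0. Cd68, a lysosomal membrane protein and the only one of them called higher, was at 1273 to 1571 FPKM in the knockdown and 930.2 to 971 FPKM in WT libraries. Cd14, a receptor for bacterial lipopolysaccharide that was called lower, was at 66.8 to 120.8 FPKM in the knockdown and 221.4 to 232.8 FPKM in WT libraries.

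The mitotic genes were lower in the Lamtor5 knockdown across nearly the whole list. All 48 passed the filter on low counts, and 46 of the 48 were lower in edgeR's quasi-likelihood test with Benjamini-Hochberg adjustment over 18164 genes, at a threshold of 0.05. The same test called 6.46% of all genes tested lower. None of the 48 was called higher, against 4.87% of all genes tested. The median log2 fold change of the 48 was -2.65, against 0.02 over all genes tested. Of the 48 genes, 46 were at least 2-fold lower, 41 at least 4-fold lower and 11 at least 8-fold lower, while 2.27% of all genes tested were at least 4-fold lower. The 2 genes not called were Cenph, which was also lower in value, and Pttg1.

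Summed over the 48 genes, the level was 94.1, 150.8 and 80.9 FPKM in knockdown replicates 1 to 3 and 331.9, 568 and 699.7 FPKM in WT replicates 1 to 3. The groups did not overlap in this sum. These sums were 0.0230% to 0.0421% of the summed FPKM of all genes in the knockdown and 0.0944% to 0.207% in WT. Taken gene by gene on scaled counts, every knockdown library was below every WT library in 47 of the 48 genes, a pattern present in 19.1% of all genes tested. The exception was Pttg1. In those 47 genes the lowest WT library exceeded the highest knockdown library by 1.21-fold (Cenph) to 3.72-fold (Kif20a), with a median of 2.63-fold, and by at least 2-fold in 37 genes. At the bottom of the range, 8 of the 48 genes were under 1 FPKM in each knockdown library, and the lowest estimated count was 39, for Ska1 in knockdown replicate 1.

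**Figure D1:**
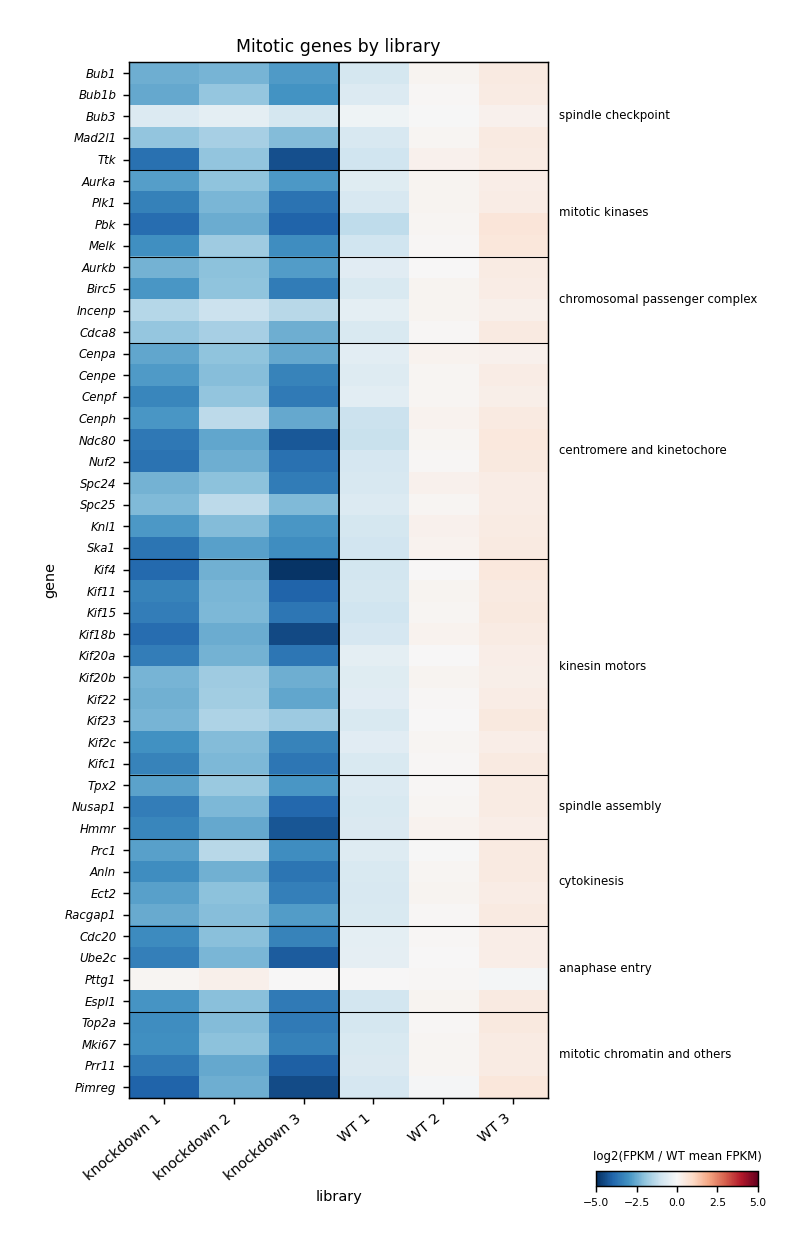
Level of each of the 48 mitotic genes (vertical axis, grouped by role) in each of the 6 libraries (horizontal axis), coloured by log2 of the FPKM over the gene's WT mean FPKM. The knockdown columns are below the WT columns in every gene but Pttg1, knockdown replicate 2 is the palest of the knockdown columns, and WT replicate 1 is below WT replicate 3 in the same 47 genes.

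The fold changes were stable in direction, but the number of edgeR calls changed with the library left out. In each fit that left out 1 library, 47 genes had a log2 fold change below 0, and the median lay between -3.08 and -2.40. The number called lower was 47 without knockdown replicate 2 or without WT replicate 1, 33 without knockdown replicate 3, 28 without WT replicate 3 and 4 without knockdown replicate 1 (Aurka, Aurkb, Cenpa and Kif20a). Without WT replicate 2 edgeR called 0 genes of the whole table; the smallest adjusted p was 0.0616, while 47 of the 48 genes and 4065 genes overall had an unadjusted p under 0.05. DESeq2 without the same library, an alternative added after this was seen, called 47 of the 48 genes lower and 2640 genes overall.

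**Figure D2:**
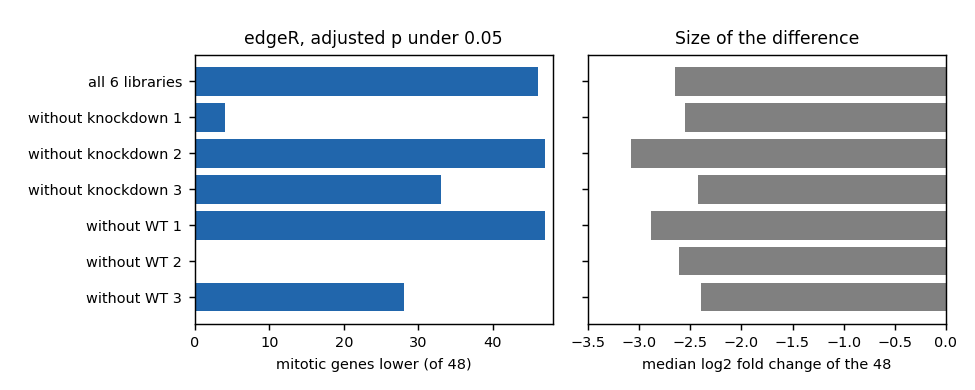
Number of the 48 mitotic genes called lower by edgeR at an adjusted p under 0.05 (left, bars) and their median log2 fold change (right, bars), with all 6 libraries and with each library left out. The number called ranges from 0 without WT replicate 2 to 47, while the median stays between -3.08 and -2.40.

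All 5 spindle checkpoint genes were lower in the knockdown, with a median log2 fold change of -2.39. Bub1b, which encodes BubR1, an inhibitor of the APC/C, was at 3.61, 5.53 and 2.70 FPKM in the knockdown and at 13.5, 22.5 and 28.3 FPKM in WT libraries. The groups were well apart, and the log2 fold change was -2.39 (SE 0.33, adjusted p = 0.0129). Bub1, a kinase that recruits checkpoint proteins to the kinetochore, was at 2.18, 2.37 and 1.68 FPKM in the knockdown and at 6.41, 13.1 and 15.9 FPKM in WT. Its knockdown libraries lay close together while WT replicate 1 had less than each other WT library, and the log2 fold change was -2.45 (SE 0.33, adjusted p = 0.0120). Bub3, which brings Bub1 and BubR1 to kinetochores, was at 8.51, 9.70 and 7.49 FPKM in the knockdown and at 11.7, 13.5 and 15.6 FPKM in WT. Its groups did not overlap but were near each other, and the log2 fold change of -0.62 (SE 0.12, adjusted p = 0.0275) was the smallest among the 46 genes called. Its promoter window held both a CHR match and a CCAAT box. Of the remaining checkpoint genes, Mad2l1, which encodes the checkpoint protein Mad2, had a log2 fold change of -1.86. Ttk, the checkpoint kinase Mps1, had one of -2.96 and the largest SE of the genes called, 0.67.

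Mitotic kinases were lower in all 4 cases, with a median of -2.71. Plk1, a kinase of centrosomes, kinetochores and the midbody, was at 2.14, 4.59 and 1.71 FPKM in the knockdown and at 13.0, 24.7 and 29.1 FPKM in WT. The highest knockdown library was below the lowest WT library, and the log2 fold change was -2.95 (SE 0.44, adjusted p = 0.0149). Pbk, a kinase active in mitosis, was at 0.888, 2.21 and 0.774 FPKM in the knockdown and at 5.19, 13.3 and 18.8 FPKM in WT. It had the widest spread among the WT libraries of the 48 genes, and a log2 fold change of -3.22 (SE 0.58, adjusted p = 0.0208). Aurka, the Aurora kinase of the spindle poles, was at 1.63, 2.74 and 1.52 FPKM in the knockdown and at 7.22, 11.98 and 13.8 FPKM in WT. Its log2 fold change was -2.44 (SE 0.30, adjusted p = 0.0114). The 4th kinase, Melk, had a log2 fold change of -2.48.

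The chromosomal passenger complex corrects faulty attachments and later guides cytokinesis; its 4 genes were all lower, with a median of -2.13. Incenp, the scaffold of the complex, was at 11.9, 15.2 and 12.1 FPKM in the knockdown and at 22.8, 35.4 and 37.9 FPKM in WT. It kept the highest knockdown level of the complex, with groups that did not overlap, and its log2 fold change of -1.24 (SE 0.19, adjusted p = 0.0149) was the smallest of the 4. Birc5, which encodes survivin, was at 2.05, 3.87 and 1.39 FPKM in the knockdown and at 9.06, 17.3 and 20.3 FPKM in WT. Aurkb, the kinase of the complex, was at 2.20, 2.72 and 1.62 FPKM in the knockdown and at 7.59, 11.5 and 14.9 FPKM in WT. Both genes had separate groups, with log2 fold changes of -2.63 (SE 0.43, adjusted p = 0.0173) for Birc5 and -2.32 (SE 0.28, adjusted p = 0.0113) for Aurkb. Cdca8, which encodes borealin, was at 2.54, 3.11 and 1.79 FPKM in the knockdown and at 5.74, 10.3 and 13.4 FPKM in WT. The fold change of Cdca8 was -1.93 on the log2 scale (SE 0.32, adjusted p = 0.0180). A gene on the opposite strand shares 4.48% of the exon bases of Cdca8.

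Among the 10 centromere and kinetochore genes, 9 were called lower, and the median log2 fold change of the 10 was -2.59. Cenpa, the histone H3 variant that marks centromeres, was at 1.03, 1.53 and 1.05 FPKM in the knockdown and at 4.32, 7.003 and 7.27 FPKM in WT. Its adjusted p of 0.00963 was the smallest of the 48 genes, with a log2 fold change of -2.31 (SE 0.23). Cenpe, a kinesin that carries chromosomes to the spindle equator, was at 1.02, 1.70 and 0.736 FPKM in the knockdown and at 4.68, 7.82 and 9.56 FPKM in WT. The groups were apart, with a log2 fold change of -2.63 (SE 0.36, adjusted p = 0.0128). Spc25, a subunit of the microtubule-binding NDC80 complex, was at 1.45, 2.69 and 1.43 FPKM in the knockdown and at 4.13, 7.19 and 8.60 FPKM in WT. The log2 fold change of Spc25 was -1.79 (SE 0.33, adjusted p = 0.0228), and those of the other NDC80 complex genes were -3.26 for Ndc80, -3.11 for Nuf2 and -2.45 for Spc24. Spc24 had the lowest WT mean of the 48 genes, with 0.385, 0.479 and 0.174 FPKM in the knockdown and 1.13, 2.27 and 2.52 FPKM in WT.

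Cenph, a subunit of the inner kinetochore on chr13:100759674-100775899 (minus strand), was the only one of these 10 genes that did not pass. It was at 0.589, 1.81 and 0.751 FPKM in the knockdown and at 2.13, 5.07 and 6.10 FPKM in WT. Knockdown replicate 2 came close to WT replicate 1 without overlapping it. The log2 fold change was -2.04 (SE 0.52, adjusted p = 0.0523), and Cenph passed in 6 of the 15 alternative fits. The other 3 genes of this class had log2 fold changes of -2.71 for Cenpf, -2.56 for Knl1, the platform on which checkpoint proteins assemble, and -3.04 for Ska1, which holds kinetochores on shrinking microtubules.

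**Figure D3:**
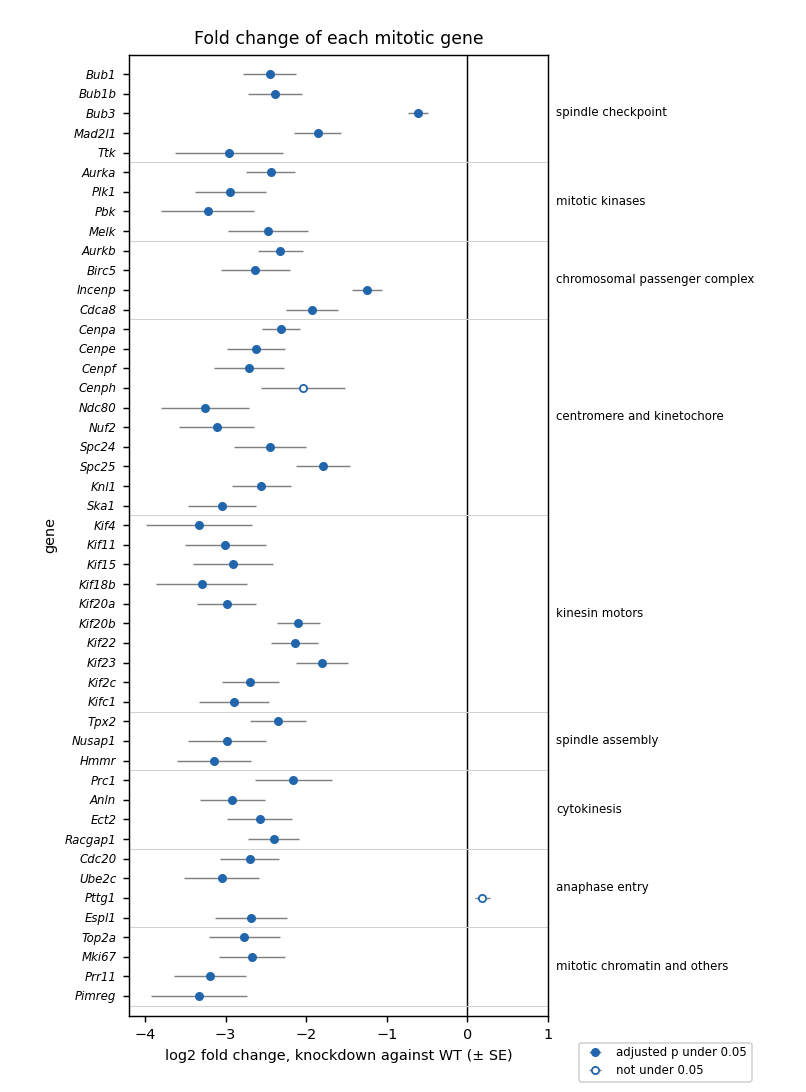
Log2 fold change of the 48 mitotic genes (knockdown against WT, horizontal axis), grouped by role, with the SE as a bar and open points for the genes not under an adjusted p of 0.05. Most genes lie between -1.8 and -3.33, Incenp and Bub3 lie nearer 0, and Pttg1 is the only gene above 0.

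Kinesin motors of the spindle were lower in all 10 cases, with a median of -2.90. Kifc1, a minus-end motor that gathers spindle poles, was at 1.33, 2.88 and 1.13 FPKM in the knockdown and at 8.07, 14.3 and 18.5 FPKM in WT. It had a log2 fold change of -2.89 (SE 0.43, adjusted p = 0.0149), and 17% of its 100-base stretches also occur in its near copy Kifc5b, so reads may be shared between them. Kif20a, which moves the chromosomal passenger complex to the central spindle, was at 1.22, 2.64 and 1.11 FPKM in the knockdown and at 9.61, 13.9 and 17.2 FPKM in WT. These groups were the farthest apart of the 48 genes by the lowest WT over the highest knockdown library, and the log2 fold change was -2.99 (SE 0.37, adjusted p = 0.0114). Exons of Cdc23, on the opposite strand, cover 29.3% of the exon bases of Kif20a. Kif11, the motor that pushes the poles apart, was at 1.15, 2.37 and 0.729 FPKM in the knockdown and at 6.37, 12.7 and 16.002 FPKM in WT, and was 8.01-fold lower (SE 0.50 on the log2 scale, adjusted p = 0.0175).

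The largest difference of all was that of Kif4, a chromokinesin on chrX:100625737-100727214 (plus strand). It was at 0.412, 1.14 and 0.201 FPKM in the knockdown and at 3.22, 6.10 and 8.75 FPKM in WT. Its knockdown libraries also had the widest spread of the 48 genes, 5.40-fold on scaled counts. The log2 fold change was -3.33 (SE 0.66, adjusted p = 0.0265), and Pdzd11, on the opposite strand, overlaps 15.1% of its exon bases. Kif22, another chromokinesin, was at 1.66, 2.68 and 1.46 FPKM in the knockdown and at 5.93, 9.10 and 11.5 FPKM in WT, with a log2 fold change of -2.15. Kif2c, which takes microtubules apart at centromeres, was at 1.05, 1.92 and 0.848 FPKM in the knockdown and at 5.70, 9.05 and 10.8 FPKM in WT, with a log2 fold change of -2.69. In both genes the groups did not overlap. The remaining 4 motors ranged from -1.80 for Kif23, the motor of the centralspindlin complex, to -3.30 for Kif18b.

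Genes of spindle assembly were lower in 3 of 3 cases, with a median of -2.98. Tpx2, which activates Aurora A on the spindle, was at 2.64, 4.71 and 2.27 FPKM in the knockdown and at 10.5, 17.8 and 22.4 FPKM in WT. Nusap1, a protein that bundles spindle microtubules, was at 1.02, 2.37 and 0.748 FPKM in the knockdown and at 6.65, 12.1 and 14.9 FPKM in WT. Hmmr, which acts at spindle poles, was at 0.945, 1.55 and 0.469 FPKM in the knockdown and at 5.52, 10.2 and 11.3 FPKM in WT. The groups of each gene were apart, and the log2 fold changes were -2.35 for Tpx2 (SE 0.35, adjusted p = 0.0146), -2.98 for Nusap1 (SE 0.48, adjusted p = 0.0165) and -3.14 for Hmmr (SE 0.46, adjusted p = 0.0142). Oip5, on the opposite strand, overlaps 4.24% of the exon bases of Nusap1.

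Cytokinesis genes were lower in 4 of 4 cases, with a median of -2.49. Racgap1, the partner of Kif23 in centralspindlin, was at 2.44, 3.19 and 1.9996 FPKM in the knockdown and at 8.21, 14.5 and 19.2 FPKM in WT. Its log2 fold change was -2.40 (SE 0.31, adjusted p = 0.0116). Anln, which encodes the contractile ring protein anillin, was at 0.920, 1.52 and 0.631 FPKM in the knockdown and at 4.71, 8.45 and 10.8 FPKM in WT. The difference for Anln was -2.92 on the log2 scale (SE 0.40, adjusted p = 0.0128). Ect2, the activator of RhoA at the division plane, was at 0.857, 1.36 and 0.533 FPKM in the knockdown and at 3.28, 6.31 and 7.43 FPKM in WT. Prc1, which cross-links the microtubules of the central spindle, was at 0.700, 1.79 and 0.536 FPKM in the knockdown and at 2.96, 4.62 and 6.37 FPKM in WT. Neither gene's groups overlapped, with log2 fold changes of -2.58 (SE 0.41, adjusted p = 0.0162) for Ect2 and -2.16 (SE 0.48, adjusted p = 0.0355) for Prc1. Rccd1, on the opposite strand, overlaps 11.1% of the exon bases of Prc1.

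Of the 4 genes of anaphase entry, Cdc20, Ube2c and Espl1 were lower and Pttg1 was not. Cdc20, the activator of the APC/C, was at 2.56, 5.38 and 2.21 FPKM in the knockdown and at 16.4, 23.3 and 28.3 FPKM in WT. Its log2 fold change was -2.70 (SE 0.36, adjusted p = 0.0123). Ube2c, the ubiquitin-conjugating enzyme that works with the APC/C, was at 1.58, 3.49 and 0.959 FPKM in the knockdown and at 12.4, 17.4 and 21.5 FPKM in WT. The WT libraries were all far above the knockdown libraries, with a log2 fold change of -3.05 (SE 0.47, adjusted p = 0.0153), and Tnnc2, on the opposite strand, overlaps 22.8% of its exon bases. Espl1, which encodes separase, the protease that cuts cohesin, had a log2 fold change of -2.69.

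Pttg1 (chr11:43420250-43426251, minus strand) encodes securin, the inhibitor of separase. It was at 12.3, 13.8 and 11.8 FPKM in the knockdown and at 11.7, 11.9 and 10.8 FPKM in WT. The groups overlapped, the log2 fold change was 0.18 (SE 0.10, adjusted p = 0.248), and Pttg1 passed in 0 of the 15 alternative fits, with log2 fold changes from 0.13 to 0.25. A value that misses the threshold does not show equal levels. Measured against its partner, Pttg1 was above Espl1 in every library: Espl1 was at 0.546, 0.998 and 0.366 FPKM in the knockdown and at 2.27, 4.65 and 5.81 FPKM in WT.

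The class of mitotic chromatin and other genes was lower in 4 of 4 cases, with a median of -2.98. Mki67, the proliferation antigen that coats mitotic chromosomes, was at 5.88, 11.6 and 4.69 FPKM in the knockdown and at 28.8, 52.6 and 64.7 FPKM in WT. Its means were 7.40 ± 3.72 and 48.7 ± 18.3 FPKM (SD, n = 3 each), and its log2 fold change was -2.68 (SE 0.41, adjusted p = 0.0153). Top2a, the topoisomerase that untangles sister chromatids, was at 3.61, 6.87 and 2.67 FPKM in the knockdown and at 16.9, 32.2 and 43.2 FPKM in WT. The fold change of Top2a was -2.77 on the log2 scale (SE 0.44, adjusted p = 0.0164). Prr11 was at 0.864, 1.70 and 0.585 FPKM in the knockdown and at 6.03, 10.7 and 13.0 FPKM in WT, and its log2 fold change was -3.20 (SE 0.44, adjusted p = 0.0129). Pimreg, with a log2 fold change of -3.33, stood beside Kif4 at the low end of the list. In all 4 genes the groups did not overlap.

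The WT libraries differed among themselves in the same genes. WT replicate 1 was the lowest and WT replicate 3 the highest WT library in 47 of the 48 genes, a pattern present in 25.4% of all genes tested. Pttg1 was the exception, with 0.893 times as much in WT replicate 3 as in WT replicate 1. Over the 48 genes the median of the highest over the lowest WT library was 2.18-fold, against 1.36-fold over all genes tested. Leaving Pttg1 out, the ratio of WT replicate 3 to WT replicate 1 ran from 1.29 (Bub3) to 3.51 (Pbk). It was at least 2 in 33 of the 48 genes, against 8.87% of all genes tested. Most of the distance lay between WT replicate 1 and the other WT libraries: the median ratio of WT replicate 2 to WT replicate 1 was 1.73 and that of WT replicate 3 to WT replicate 2 was 1.24, and the first was larger in 46 genes. Without WT replicate 1 the median spread of the WT libraries was 1.23-fold.

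The knockdown libraries had a common order too. Knockdown replicate 2 was the highest knockdown library in 48 of the 48 genes, against 31.5% of all genes tested, and knockdown replicate 3 was the lowest in 43 of them, against 17.4% of all genes tested for both together. The median of the highest over the lowest knockdown library was 2.36-fold, within a range from 1.12 to 5.40, and was 1.36-fold over all genes tested. The 48 genes moved together from library to library within each group, so they are not 48 separate observations of the knockdown.

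**Figure D4:**
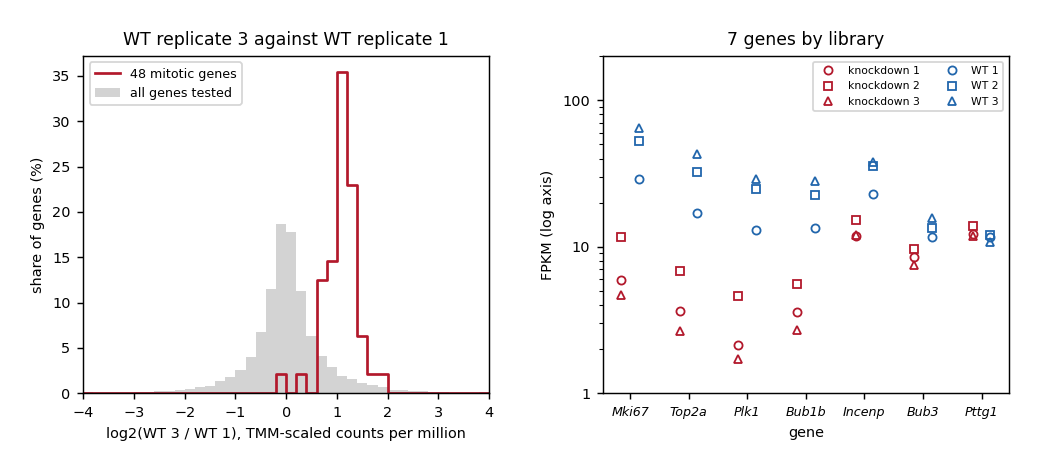
Left, share of genes (%) by log2 ratio of WT replicate 3 to WT replicate 1 for the 48 mitotic genes (line) and all genes tested (grey bars); right, FPKM on a log axis of 7 of the genes in each library (symbols for the replicate number, red for knockdown and blue for WT). The median ratio of the mitotic genes is 2.18, all genes centre on equal levels, and Incenp, Bub3 and Pttg1 have the smallest gaps between the groups among the 7.

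Other genes of the pathway show how far the difference reached; these lists, like the 48 names, were drawn up with results of these data known. Of 79 further mitotic genes, 64 were lower and 0 higher, with a median log2 fold change of -2.03. That is 81.0% lower, against 6.46% of all genes tested, while 4.87% of all genes tested were higher. Cdc25c, the phosphatase that activates Cdk1, was at 0.120, 0.227 and 0.127 FPKM in the knockdown and at 1.003, 2.04 and 2.42 FPKM in WT, with a log2 fold change of -3.44. Cep55, a protein of the midbody, had one of -2.07. The 2 genes of this list with the smallest p above 0 did not pass: Kif2b at 1.26 (adjusted p = 0.0727) and Zwint at 0.29 (adjusted p = 0.121). The WT libraries again had replicate 1 lowest and replicate 3 highest in 71 of the 79 genes, against 25.4% of all genes tested.

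APC/C genes, which encode the ubiquitin ligase that Cdc20 activates and its regulators, were lower in 4 and higher in 0 of 17, with a median of -0.29. That is 23.5% lower, against 6.46% of all genes tested. Fzr1, the APC/C activator of late mitosis and G1, was at 7.03, 6.23 and 5.59 FPKM in the knockdown and at 9.72, 12.4 and 13.5 FPKM in WT, with a log2 fold change of -0.87. Anapc5, a core subunit, had one of -0.78. Kinesins of transport and other work, which share the motor domain with the spindle motors, were lower in 2 and higher in 4 of the 24 tested of 25, with a median of 0.13. The 2 lower calls are 8.33% of the list, near the 6.46% of all genes tested; 4.87% of all genes tested were higher. Kif26b was at -2.76 and Kif5b, a motor of vesicle transport, at -0.43, while Kif1a was at 1.896 and Kif9 at 1.36 on the log2 scale.

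Tubulin genes encode the microtubule subunits and the nucleating gamma-tubulin complex. They were lower in 6 and higher in 1 of 19, with a median of -0.41. Lower calls were 31.6% of the list, while 6.46% of all genes tested were lower and 4.87% higher. Tubb4b was at 41.6, 47.8 and 33.6 FPKM in the knockdown and at 64.2, 92.2 and 116.6 FPKM in WT, with a log2 fold change of -1.10. Tuba1c, an alpha-tubulin gene, had one of -1.01, and Tuba8, another alpha-tubulin gene, one of 2.11. DNA replication genes, which act in S phase before mitosis, were lower in 19 and higher in 0 of 35, with a median of -1.49. In this list 54.3% were lower, against the same 6.46% of all genes tested. Rrm2, a subunit of ribonucleotide reductase, was at 3.32, 6.43 and 2.10 FPKM in the knockdown and at 13.5, 34.7 and 48.2 FPKM in WT, with a log2 fold change of -2.98. Tk1, a thymidine kinase, had one of -2.54. In the replication list the spread within WT was wider than for the 48 mitotic genes, with a median of 2.74-fold between the highest and lowest WT library, and the spread within the knockdown narrower, at 1.41-fold. Without WT replicate 2, edgeR called 0 genes in each of these 5 lists.

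**Figure D5:**
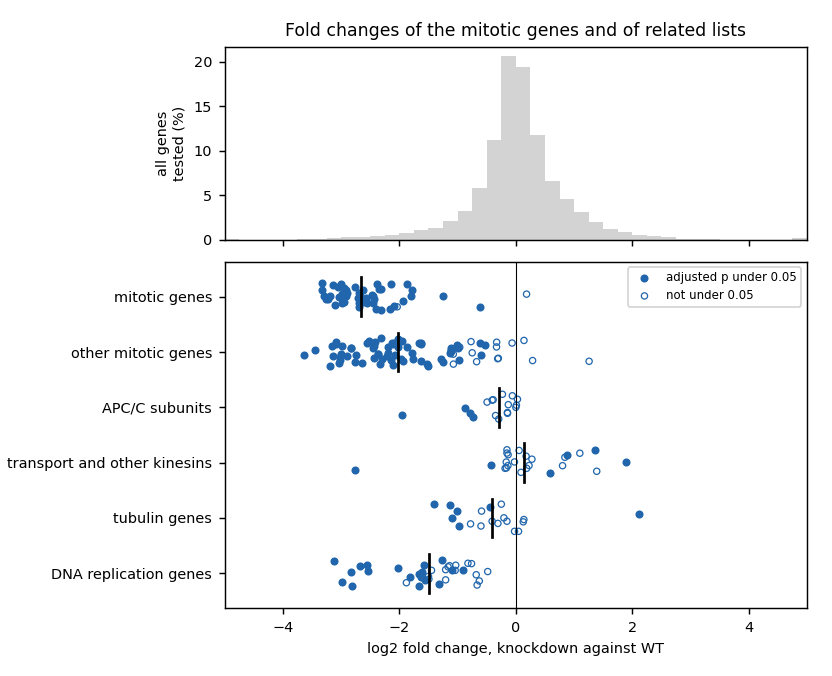
Top, share of all genes tested (%) by log2 fold change of knockdown against WT; bottom, the log2 fold changes of the 48 mitotic genes and of 5 related lists, with filled points for an adjusted p under 0.05 and a black line at each list's median. The medians run from -2.65 for the 48 genes and -2.03 for further mitotic genes, through -1.49 for DNA replication genes, to 0.13 for transport and other kinesins.

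Markers of the cells that such a culture can hold were read in the same fit, in which 6.46% of all genes tested were lower and 4.87% higher, so that 1 call in a list of about 10 is near the background. Of 10 macrophage markers, 5 were lower and 1 was higher in the knockdown. Their summed levels were 1990 to 13203 FPKM in the knockdown against 24251 to 31396 FPKM in WT. Lyz2 made up most of each sum but that of knockdown replicate 3, so the sums describe mainly that gene. Lyz2 was at 11356 and 10650 FPKM in knockdown replicates 1 and 2 and at 22454 to 29379 FPKM in WT. It was not called by edgeR (adjusted p = 0.408). Lyz2 is also the locus in the mutant's name, and the labels do not describe the alleles. Its level in the knockdown thus cannot be read as a plain macrophage marker. The lowest sum was that of knockdown replicate 3, the library with little Lyz2, and the knockdown sums of replicates 1 and 2 were 13203 and 12404 FPKM. Csf1r, the receptor of M-CSF, was at 190.0, 223 and 159.9 FPKM in the knockdown and at 541.4, 446.8 and 347.1 FPKM in WT, with a log2 fold change of -1.18. Within WT, Csf1r was highest in replicate 1 and lowest in replicate 3, the reverse of the order of the mitotic genes. Cd14 and Lyz2 had this reverse order too, and Cd68 did not. The share of all genes tested with the reverse order was not counted. Of 10 myeloid progenitor markers, 2 were higher and 0 lower, and their summed level was 20.9 to 30.7 FPKM in the knockdown and 12.2 to 13.0 FPKM in WT. Kit, the stem cell factor receptor, had a log2 fold change of 2.23, and Mpo, a granule enzyme of progenitors and granulocytes, one of 0.95. Within these sums Kit was at 7.37, 5.77 and 15.4 FPKM in the knockdown and at 1.41, 1.94 and 2.98 FPKM in WT. Cd34 was the only marker of the 10 below 0, at -1.02, and was not called by edgeR (adjusted p = 0.194).

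Summed levels of the other marker lists overlapped between the groups except in 1 case. The exception was the mast cell, basophil and eosinophil list, with 2 of the 8 tested of 9 markers higher and sums of 6.60 to 15.3 FPKM in the knockdown against 2.17 to 4.54 FPKM in WT. Of 6 monocyte markers 1 was lower, with sums of 33.9 to 38.64 against 38.35 to 41.3 FPKM. Of 10 neutrophil markers 1 was lower, with sums of 133.7 to 251.1 against 163.4 to 232.5 FPKM. Erythroid and megakaryocyte markers were higher in 1 of the 7 tested of 9, with sums of 40.9 to 153.2 against 52.1 to 56.5 FPKM. Among B cell markers 1 of the 8 tested of 10 was lower, with sums of 83.3 to 212.3 against 92.5 to 140.0 FPKM. Of the 9 T and NK cell markers 3 were tested and none was called, with sums of 0.950 to 1.41 against 0.758 to 1.36 FPKM, and Cd3g and Gzma were listed at 0 in all 6 libraries. None of the 8 dendritic cell markers was called, with sums of 133.0 to 197.3 against 127.0 to 133.9 FPKM, nor any of the 9 fibroblast and stroma markers, with sums of 2.27 to 7.11 against 3.67 to 8.49 FPKM. The part of these cell types in the levels of the mitotic genes was not tested.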

How the data were processed

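RNA was measured by paired-end sequencing in 6 libraries, 3 labelled Lamtor5 knockdown and 3 labelled WT. Adapters were removed by the authors with cutadapt 1.9, per the file headers (minimum overlap 5, minimum read length 100). Coordinates are on GRCm38 (mm10), a build named in the submitters' processing notes. How reads were aligned and counted, against which annotation and whether by strand, is not given in the sources used here. Estimated counts and FPKM for each library were deposited by the authors, per the file headers, in 1 table of 55401 genes. The estimated counts are whole numbers that sum to about 3 per read pair, so no binomial interval was made from them. An FPKM of 0.0001 stands where the count is 0, and is called listed at 0.

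The estimated counts were tested with edgeR 4.0.16 (R 4.3.3): filterByExpr with a minimum count of 10, TMM normalization, a quasi-likelihood test of group without covariates, and p-values adjusted by Benjamini-Hochberg over 18164 genes with 0.05 as threshold. The SE of a log2 fold change is its size over the square root of F. Ratios between libraries use counts per M scaled by TMM; levels are the deposited FPKM. Lamtor5 was also compared by an exact permutation test (scipy 1.17.1). The members and the other lists were chosen with earlier results of these data known. The genes given with every value are the 3 with the highest mean FPKM in each of 9 role classes, genes that did not pass, the largest and smallest changes, and most genes that overlap or share sequence with another gene; of each other list, the 2 genes with the smallest p in each direction were considered. Overlaps come from GENCODE M21 exons and shared stretches of 100 bases in its transcripts.

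On simulated counts (17496 genes) edgeR called 42 of 57 genes lowered 8-fold, 15 of 65 lowered 2-fold and 1 of 64 lowered 1.5-fold, with 5 calls among 17310 unchanged genes. Alternatives were RLE and upper quartile scaling, DESeq2 1.42.0, no count filter, limma 3.58.1 on log2(FPKM + 1) or log2(FPKM + 0.1) with a mean FPKM of at least 1 or no filter, counts divided to read pairs, a replicate block, and each library left out.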

Additional observations from a re-analysis of the deposited data

How the results depend on the processing

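All 47 mitotic genes below 0 kept that sign in each of the 15 alternatives, and of 720 single-gene values over them 570 kept their side of the threshold, 144 lost the call, 6 gained it and 0 changed sign; the cause was not tested beyond the smaller number of libraries where one was left out. The number of the 48 called lower was 46 with RLE or upper quartile scaling, 47 with DESeq2, with limma under either pseudocount or with counts divided to read pairs, 44 with no count filter and 29 with limma on log2(FPKM + 1) without a filter. Upper quartile scaling changed the split over all genes from 1173 lower and 885 higher to 958 lower and 1156 higher. The median log2 fold change of the 48 was -1.96 in limma on log2(FPKM + 1), with or without the filter, since the added 1 shrinks the differences of low genes. Leaving out 1 library gave 0 to 47 of the 48 genes called lower and 0 higher, medians of -3.08 to -2.40, 47 genes with groups apart in each case, and a WT spread of 1.23 to 2.18. Lamtor5 ranged from -1.09 to -1.04 and missed the threshold without WT replicate 2 (-1.09, adjusted p = 0.0616). In the same fits the calls lower ranged from 0 to 69 for the further mitotic genes, 0 to 5 for the APC/C, 0 to 2 for transport kinesins (0 to 4 higher), 0 to 9 for tubulins (0 to 1 higher) and 0 to 34 for DNA replication.

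With DESeq2 the calls were 8 lower for the APC/C, 32 lower for DNA replication and 1 higher for the further mitotic genes. With no count filter they were 2 lower for the APC/C, 5 for DNA replication, 1 for transport kinesins and 2 for tubulins. Limma on log2(FPKM + 1) called 7 DNA replication genes and 1 transport kinesin lower and 0 tubulins higher, limma on log2(FPKM + 0.1) 10, 1 and 0, and limma without a filter 16 further mitotic genes, 1 APC/C gene, 0 DNA replication genes, 1 transport kinesin and 0 tubulins lower, with 2 transport kinesins and 0 tubulins higher. The deviations of same-numbered libraries from their group means were nearly uncorrelated (r of 0.051, 0.051 and -0.043 over genes). The labels name no pairing, and these values from 3 libraries per group cannot decide whether the numbers pair them. The replicate block moved all calls from 2058 to 728, the 48 genes to 40 lower, the further mitotic genes to 36, the APC/C to 0, DNA replication to 3, transport kinesins to 1 lower and 2 higher and tubulins to 0. In the deviations from group means, knockdown replicates 1 and 2 correlated best with the WT library of the same number, and knockdown replicate 3 did not. The margin was small for knockdown replicate 2, with r of 0.0508 for WT replicate 2 and 0.0495 for WT replicate 3. Depth limited the lowest genes, at 39 estimated counts for Ska1 in 1 library.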

Other observations

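The cyclin-dependent kinase inhibitors of the p21 family, which hold cells back from dividing, were read beside the mitotic genes and chosen after their values were seen. Cdkn1a, which encodes p21 itself, was at 35.5, 31.04 and 15.5 FPKM in the knockdown and at 35.7, 43.2 and 47.2 FPKM in WT. The log2 fold change of Cdkn1a was -0.57 (SE 0.29, adjusted p = 0.234), with knockdown replicate 3 the lowest library. Cdkn1b, which encodes p27, was at 6.24, 7.46 and 6.65 FPKM in the knockdown and at 10.001, 9.04 and 8.44 FPKM in WT. The groups of Cdkn1b did not overlap, and its log2 fold change was -0.39 (SE 0.11, adjusted p = 0.0598). Neither gene passed, while the third member of the family, Cdkn1c, was higher, with a log2 fold change of 2.73 (SE 0.21, adjusted p = 0.00963).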
